A study of Cucumis sativus with 18 samples.

Results

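Embryos after 60 days of ovary culture were set against ovules after 2 days of culture, the last against the first cultured stage of a cucumber (Cucumis sativus) tissue culture. The comparison covered the genes with an RPKM (reads per kilobase of gene and per mega reads) of at least 1 in 3 or more of the 6 libraries of the 2 stages, which held for 16989 of the 23248 genes listed. The series has 18 RNA-seq libraries, 3 described as biological replicates at each of 6 stages, namely fresh unpollinated ovaries, ovules cultured for 2 days, and embryos cultured for 10, 20, 30 and 60 days. Every library carries the tissue label ovary, and the stage label alone tells ovules from embryos, so the sampled material and the time in culture differ together between the 2 groups and their parts in a difference cannot be told apart. The labels give no cultivar, culture medium, plant of origin or pooling of explants. In libraries of mixed cells, fewer cells of a type and less RNA per cell cannot be told apart either.

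Ovary culture is a route to haploid plants. Unpollinated ovaries or ovules are placed on medium, where cells of the embryo sac may divide and form embryos without fertilisation. The ovule holds the embryo sac inside its integuments, so early cultures are mostly maternal tissue, while late cultures may hold embryo structures, callus or shoots. The deposited tables and the RefSeq gene table used here share no identifier, so no gene name, function, marker list or sequence could be attached to a gene. Genes are therefore given by their ID, and the stage labels were not checked against defining markers.

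The 3 day 60 libraries held 34.0, 32.5 and 72.5 M (mega) reads assigned to genes and the 3 day 2 libraries 31.3, 21.8 and 48.9 M, worked out from the steps of the RPKM values. Replicate 3 was the deepest at both stages. Between libraries of the same stage, log2(RPKM + 1) correlated across these genes at 0.983 to 0.991 at day 60 and at 0.971 to 0.987 at day 2. Between a day 60 and a day 2 library the correlation was 0.741 to 0.772. The median SD over 3 replicates on that scale was 0.11 at day 60 and 0.16 at day 2.

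More genes were higher than lower at day 60, and most of the genes compared changed. Of the 16989 genes, 10831 were called by limma at a Benjamini-Hochberg adjusted p under 0.05, of which 5900 were higher and 4931 lower in day 60 embryos than in day 2 ovules. Called genes made up 63.8% of these genes and 61.4% of all 18153 genes tested in the series, where 33.5% were higher and 27.9% lower. The share called among the genes compared is thus near that of all genes tested. The median log2 fold change was 0.06 over the genes compared and 0.06 over all genes tested. With median-ratio scaling between libraries that median was 0.02 and the calls were 5572 higher and 5269 lower, so much of the excess of rises depends on the scaling. The libraries of the 2 stages did not overlap for 12225 genes, or 72.0%, against 70.1% of all genes tested. The filter admits a gene that is expressed at 1 stage alone, and 676 genes reached the minimum in all 3 day 60 libraries and in no day 2 library, against 487 in the opposite case, so these had to differ.

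**Figure D1:**
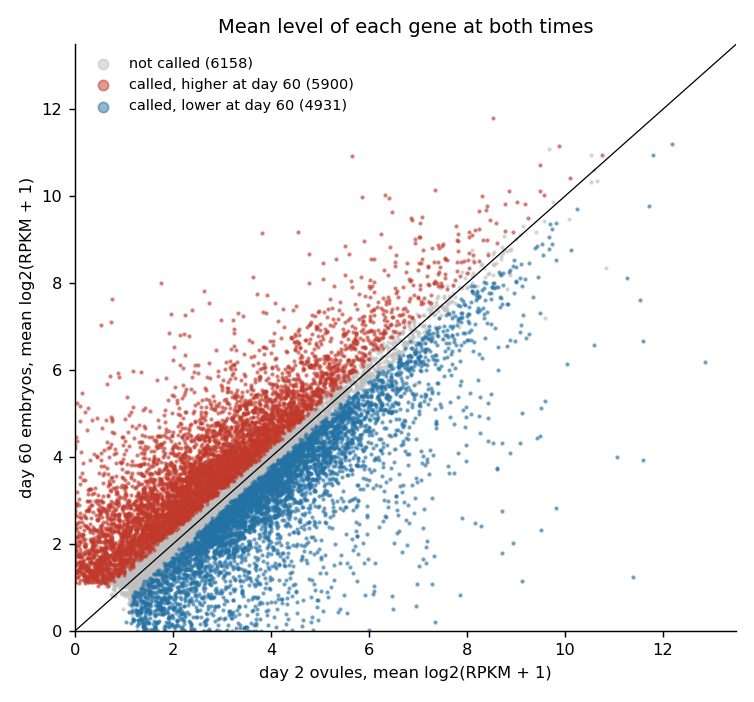
Mean log2(RPKM + 1) over 3 libraries in day 60 embryos (vertical) against day 2 ovules (horizontal), 1 point per gene. The 5900 genes called higher at day 60 lie above the line of equality and the 4931 called lower lie below it, and the points farthest from the line at high level are of genes abundant at day 2.

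Most calls were of moderate size. Among called genes the median log2 fold change was 0.91 for those that rose and -0.83 for those that fell. Changes under 1.5-fold accounted for 1483 rises and 1495 falls, and changes of at least 2-fold for 2603 rises and 1969 falls. At 4-fold or more there were 659 rises and 601 falls. At 16-fold or more the balance turned, with 50 rises and 91 falls, and at 64-fold or more there were 4 rises and 13 falls. These folds are on log2(RPKM + 1), which understates the change of genes that are low at 1 stage. The median at the lower stage was 0.891 RPKM for the 50 rises and 2.17 RPKM for the 91 falls. Whether the turn holds on another scale was not tested. Tested against a 2-fold change with limma's treat, 2246 genes passed, 12.4% of all genes tested in the series. Of these 1233 were higher (6.79%) and 1013 lower (5.58%) at day 60.

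**Figure D2:**
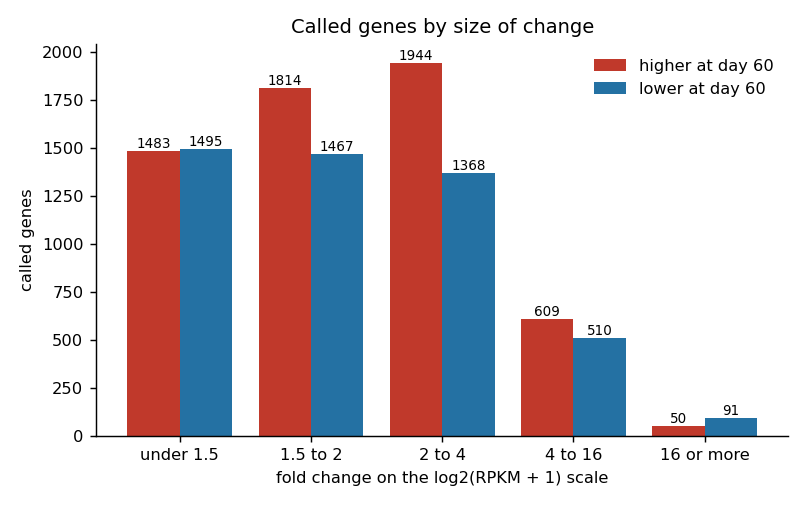
Number of called genes (vertical) in classes of fold change on the log2(RPKM + 1) scale (horizontal), with genes higher at day 60 beside those lower at day 60. Rises outnumber falls between 1.5-fold and 16-fold, and falls outnumber rises, 91 against 50, at 16-fold or more. This scale understates the changes of genes that are low at 1 stage.

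The genes named here and below were picked for large changes among called genes with no overlap of libraries. Their separation and small p-values were largely fixed by that choice. The largest rise by fold was that of Csa1G568500. Its RPKM was 260.3, 242.3 and 122 in the 3 day 60 libraries, against 0.809, 0.872 and 0.388 in the 3 day 2 libraries. All day 60 libraries lay far above all day 2 libraries, and replicate 3 was the lowest at both stages. The means were 208 ± 74.9 RPKM at day 60 and 0.690 ± 0.263 RPKM at day 2 (SD, n = 3 each), on 20211 and 50 reads. The log2 fold change in limma was 6.89 (SE 0.32, adjusted p = 4.96e-11). It was 8.03 with a pseudocount of 0.1 and 8.28 with voom on the recovered reads, since a pseudocount of 1 exceeds the day 2 level. Its mean was higher at each later time of the culture, with 0.690 RPKM at day 2, 1.43 at day 10, 6.16 at day 20, 31.8 at day 30 and 208 at day 60. In fresh ovaries it had 1 read in the 3 libraries together.

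The largest rise in quantity was that of Csa6G518000, which had the highest mean RPKM of all genes at day 60 and ranked 129 at day 2. It stood at 3707, 3798 and 3242 RPKM in day 60 embryos, against 430.04, 338 and 345 RPKM in day 2 ovules. The groups were far apart, and the spread within each was small beside the gap. The means were 3582 ± 298 RPKM and 371 ± 51.2 RPKM (SD, n = 3 each), a log2 fold change in limma of 3.27 (SE 0.12, adjusted p = 3.91e-12). Unlike Csa1G568500, this gene was already high in the first embryos, at 2771 ± 261 RPKM at day 10, with 2101 ± 298 RPKM at day 20 and 2168 ± 103 RPKM at day 30. Fresh ovaries, at 294 ± 32.1 RPKM, were near the day 2 level.

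The largest fall by fold was that of Csa2G021500, with 1.04, 1.32 and 1.75 RPKM in day 60 embryos, against 2465, 2904 and 2681 RPKM in day 2 ovules. It ranked 9 by mean level at day 2 and 15869 at day 60. The means were 1.37 ± 0.355 RPKM and 2683 ± 219.7 RPKM (SD, n = 3 each), with a log2 fold change in limma of -10.15 (SE 0.21, adjusted p = 1.18e-14). The decline was not even. Means of 107 at day 10, 447 at day 20 and 12.3 RPKM at day 30 lay between, with day 20 above day 10 in every library. At day 60 the level was close to the 1.34 ± 0.913 RPKM of fresh ovaries.

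Csa4G000860 had the highest mean of all genes at day 2 and the largest fall in quantity. It stood at 80.9, 73.1 and 63.8 RPKM in day 60 embryos, against 7149, 8177 and 7086 RPKM in day 2 ovules. The means were 72.6 ± 8.59 RPKM and 7471 ± 613 RPKM (SD, n = 3 each), a log2 fold change in limma of -6.67 (SE 0.37, adjusted p = 3.05e-10). The level at day 60 remained above the 2.10 ± 1.90 RPKM of fresh ovaries, with no overlap of libraries. Means of 1471 at day 10, 1307 at day 20 and 720.2 RPKM at day 30 lay between the 2 stages.

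**Figure D3:**
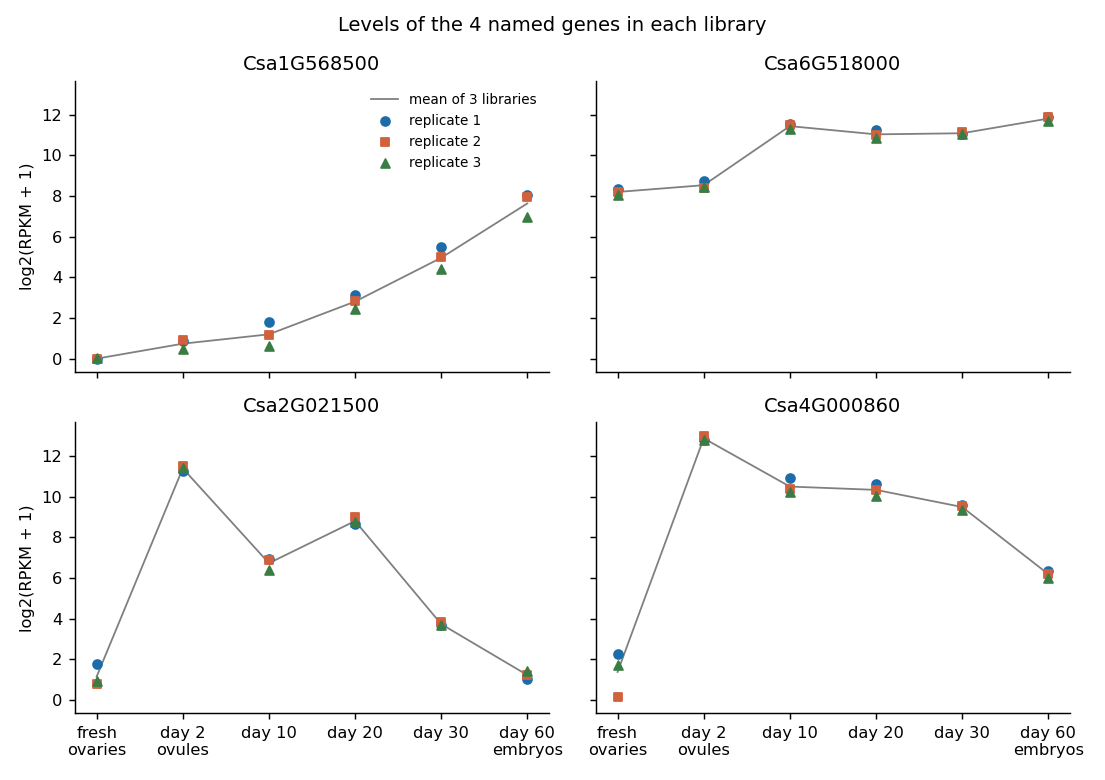
Level of each named gene on the log2(RPKM + 1) scale (vertical) at the 6 stages (horizontal), with 1 point per library and a line through the means. Csa1G568500 climbs stepwise to 208 RPKM at day 60, Csa6G518000 is high from day 10, and Csa2G021500 and Csa4G000860 peak at day 2.

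The most abundant genes of the stages were the same in part. Of the 100 genes with the highest mean RPKM at day 60 and the 100 highest at day 2, 46 were in both lists, and of the top 10 of each stage 2 were shared. The day 60 top 100 held 19.6%, 19.9% and 20.0% of the RPKM sum in the day 60 libraries, against 13.1%, 12.4% and 13.9% in the day 2 libraries. Of these genes 63 rose and 14 fell, and 23 rose at least 4-fold. The day 2 top 100 held 12.9%, 13.4% and 12.9% in the day 60 libraries, against 22.5%, 25.7% and 23.1% in the day 2 libraries, and 64 of them fell, 28 at least 4-fold, while 13 rose. Membership of a top list selects for a high value at that stage, so these counts are a description.

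Expression was less concentrated in day 60 embryos. The 100 most abundant genes of each library held 19.6%, 20.0% and 20.2% of the RPKM sum at day 60, against 22.6%, 25.8% and 23.5% at day 2, means of 19.9% ± 0.271 and 23.9% ± 1.68 (SD, n = 3 each). The 10 most abundant held 5.54% ± 0.167 at day 60 and 8.93% ± 1.37 at day 2. Genes at 1 RPKM or more numbered 16449, 16465 and 16452 in the day 60 libraries, against 16110, 16032 and 16156 in the day 2 libraries. In each of these measures the groups did not overlap, and the two-sided exact permutation test gave p = 0.1, the smallest that 3 libraries against 3 allow.

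The share of genes that fell differed between classes of level, from 21.5% to 44.7%, while the share that rose lay between 33.0% and 35.7% in every class. Of 678 genes with a mean of 100 RPKM or more over the 6 libraries, 33.0% rose and 44.7% fell at day 60. Of 3272 genes between 20 and 100 RPKM, 35.4% rose and 37.4% fell. Among 7577 genes between 5 and 20 RPKM, 33.9% rose and 29.5% fell. Among 5462 genes under 5 RPKM, 35.7% rose and 21.5% fell. Under median-ratio scaling the shares were 30.4% and 46.5% for the most abundant class and 33.8% and 22.8% for the lowest, so falls still outnumbered rises among the most abundant genes and rises outnumbered falls in the lowest class, while the class from 5 to 20 RPKM came to 32.0% and 31.8%. The difference between classes itself was not tested.

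**Figure D4:**
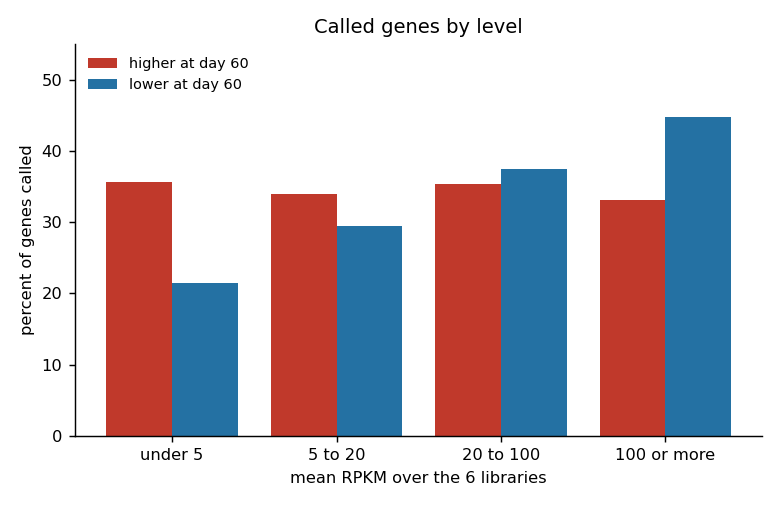
Percent of genes called higher and percent called lower at day 60 (vertical) in 4 classes of mean RPKM over the 6 libraries (horizontal). The share called lower climbs from 21.5% in the lowest class to 44.7% in the highest, and the share called higher lies between 33.0% and 35.7%.

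Few genes were switched fully on or off. With at least 1 RPKM in all 3 libraries of a stage and under 0.1 RPKM in all 3 of the other, 56 genes were expressed at day 60 and not at day 2, and 49 genes at day 2 and not at day 60. The median level was 2.83 RPKM at day 60 for the 56 and 4.63 RPKM at day 2 for the 49. The highest of the first set had 37.4 RPKM at day 60 and the highest of the second 63.2 RPKM at day 2. Of the 56, 13 had a mean of at least 1 RPKM at day 10, 18 at day 20, 36 at day 30 and 7 in fresh ovaries. Of the 49, 14 did at day 10, 23 at day 20, 7 at day 30 and 10 in fresh ovaries. No read at all was found at day 2 for 23 genes expressed at day 60, and none at day 60 for 21 genes expressed at day 2, where a count of 0 over a group allows up to 3 reads in its 139 M (day 60) or 102 M (day 2) reads. In contrast 14581 genes reached 1 RPKM in all 6 libraries.

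A steady class was also present. For 820 genes, or 4.83%, the 95% interval of the difference between day 60 and day 2 lay within 1.25-fold in either direction. The bound is on log2(RPKM + 1), which understates changes of low genes, so a low gene can pass with a larger change in RPKM. The count was not repeated with another pseudocount or scaling. That count depends on the bound, with 324 genes within 1.2-fold and 1483 within 1.3-fold. Of the 820, 38 had a mean over 100 RPKM at both stages, and 3 were called despite the small change. The 6158 genes that were not called include many whose interval is wider than that and which are therefore not shown to be steady.

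The path between the 2 stages was followed for the 2603 genes that rose and the 1969 that fell at least 2-fold. The mean of each gene at another stage was placed on a scale where 0 is its day 2 mean and 1 its day 60 mean, on log2(RPKM + 1), as a description without a test. For the genes that rose, the median place was 0.17 at day 10, 0.32 at day 20 and 0.65 at day 30. For the genes that fell it was 0.44, 0.495 and 0.68 at the same times. The first embryos were thus closer to day 2 ovules for rising genes than for falling genes. At day 10, 28.9% of rising genes and 45.8% of falling genes had passed halfway, and at day 30 65.8% and 67.4% had. With median-ratio scaling these shares were 32.7% and 40.8% at day 10, and 61.0% and 72.0% at day 30. The gap at day 10 thus narrowed and that at day 30 widened. At day 20 the shares were 36.5% and 49.5% as deposited, and 42.8% and 43.1% under median-ratio scaling. The median places at day 20 under that scaling were 0.40 and 0.41, so the gap at day 20 nearly closed.

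Individual courses were varied. Among rising genes, 791 were past halfway at day 30 and not before, 720 were still short of halfway at days 10, 20 and 30, and 525 were past halfway at all 3 of these times. Among falling genes the largest class, 584 genes, was past halfway at all 3, followed by 449 past halfway at day 30 alone and 369 short of halfway throughout. With median-ratio scaling the class past halfway at day 30 alone had 589 rising and 552 falling genes, and became the largest of the falling genes, while the largest class of the rising genes was then the 761 short of halfway throughout. A course that moved toward day 60 at each step and stayed within the range of the 2 stages was followed by 379 rising genes, 14.6%, and by 223 falling genes, 11.3%. These stepwise counts were made on the values as deposited alone. At day 10, 34.8% of the rising genes lay below their day 2 mean and 24.99% of the falling genes above it. With median-ratio scaling these shares were 31.1% and 28.2%, so the gap narrowed.

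**Figure D5:**
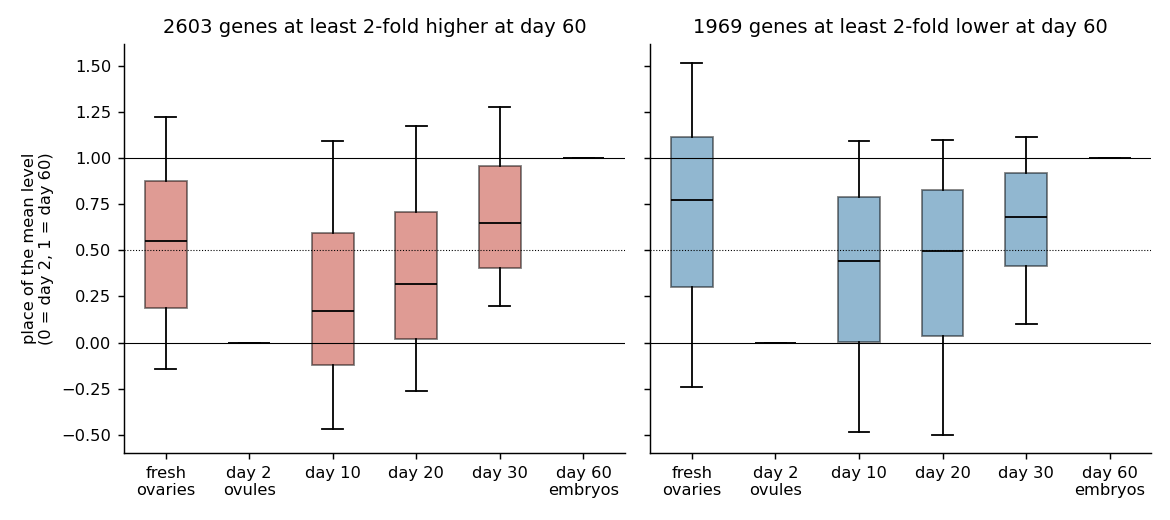
Place of each gene's mean level (vertical, 0 at day 2 and 1 at day 60) at the 6 stages (horizontal), for genes at least 2-fold higher and at least 2-fold lower at day 60. Boxes span the quartiles with the median as a line, and whiskers reach the percentiles 10 and 90 of the genes. The medians at day 10 are 0.17 for rising and 0.44 for falling genes.

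The level in fresh ovaries was nearer to day 60 than to day 2 for 54.0% of the rising and 66.4% of the falling genes. Fresh ovaries held the highest mean of the 6 stages for 365 of the 2603 rising genes and the lowest for 577 of the 1969 falling genes. The day 60 mean was the highest of the 6 stages for 1496 of the rising genes and the lowest for 954 of the falling ones. The day 2 mean was the lowest of the 6 for 1372 rising genes and the highest for 1110 falling ones. These genes were picked on their day 60 and day 2 values, which favours extremes at these 2 stages. The counts and shares are thus a description without a test.

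The genes with the largest changes, picked on their day 60 and day 2 values, are described over all 6 stages. The 91 genes that fell at least 16-fold had a median of 2.17 RPKM at day 60, against 119 RPKM at day 2. Their median was 3.81 RPKM in fresh ovaries, 30.7 at day 10, 37.5 at day 20 and 6.41 at day 30. For 74 of the 91 the day 2 mean was the highest of the 6 stages, and 80 stood nearer to the day 60 than to the day 2 level in fresh ovaries. The 50 genes that rose at least 16-fold had a median of 60.5 RPKM at day 60, against 0.891 RPKM at day 2. Their median was 15.7 RPKM in fresh ovaries, 5.05 at day 10, 12.2 at day 20 and 33.3 at day 30, and day 60 held the highest mean for 35 of them. In fresh ovaries 26 of the 50 stood nearer to the day 60 than to the day 2 level.

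A comparison that shares no library with these 6, day 30 embryos against day 10 embryos in the same limma fit, was used to see where the called genes moved in between. Of the 5900 genes higher at day 60, 3110 were higher and 601 lower at day 30 than at day 10, which is 52.7% and 10.2%. Of the 4931 genes lower at day 60, 1590 were lower and 1186 higher at day 30, which is 32.2% and 24.1%. Over all genes tested in the series 36.4% were higher and 17.4% lower at day 30. The shared genes were 49.3% of the 6303 genes higher at day 30 and 54.7% of the 2908 lower at day 30. For comparison, 33.5% of all genes tested in the series were higher and 27.9% lower at day 60 than at day 2. The step from day 10 to day 30 depends strongly on the scaling. Its median log2 fold change over the genes compared was 0.22 as deposited and 0.02 under median-ratio scaling. Under that scaling 42.1% of the genes higher at day 60 were higher at day 30, and 40.2% of the genes lower at day 60 were lower at day 30, against 15.2% and 14.2% that moved in the opposite direction. Of all genes compared, 25.2% were higher and 24.5% lower at day 30 under that scaling.

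Genes that changed at least 2-fold had a lower median length than all genes compared. The gene length recovered from the RPKM steps had a median of 2147 bases for the genes that rose at least 2-fold, 1676 bases for those that fell at least 2-fold and 2977 bases for all genes compared. With the genes split by length into 4 classes of nearly equal size, in the class of the shortest, from 150 to 1619 bases, 22.8% rose and 22.4% fell at least 2-fold. In the class of the longest, from 4744 bases, 7.86% rose and 4.10% fell. The median log2 fold change was -0.05 in the shortest and 0.09 in the longest class. Replicate 3 differed from the mean of the other replicates by a median log2 of -0.03 in the shortest and 0.04 in the longest class at day 60, and by 0.02 and 0.08 at day 2. The part of library preparation in the length pattern was not tested.

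Calls were spread over all groups of IDs. The IDs fall into 7 numbered prefixes, from Csa1G to Csa7G, and a small unnumbered set. Genes higher at day 60 made up between 33.0% (Csa5G) and 36.8% (Csa1G) of the numbered sets, and genes lower between 27.2% (Csa1G) and 30.9% (Csa5G). In the order of IDs, the gene next to one that rose at least 2-fold had also risen at least 2-fold in 20.1% of cases, where 15.3% of all genes compared had. Next to a gene that fell at least 2-fold, 18.6% had fallen too, where 11.6% of all had. Runs of 4 or more consecutive IDs that changed at least 2-fold in 1 direction numbered 11 for rises, the longest of 8 genes in Csa4G. There were 11 for falls, the longest of 5 genes in Csa1G. No count of runs was made for a random order of IDs, so these counts are a description. Csa4G000860 ends a run of 4 genes that fell. The ID just before it fell to 1.203 RPKM at day 60, against 155 RPKM at day 2. The ID just before Csa2G021500 fell as well, to 71.8 RPKM at day 60 against 1059 RPKM at day 2, while the IDs on either side of Csa6G518000 and Csa1G568500 had at most 10.04 RPKM at day 60. Neighbouring copies of a gene can share reads, and no source used here gives the strand setting of the counting, so these neighbours are uncertain as independent changes.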

How the data were processed

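The values the authors deposited are RPKM per gene and library, per the file headers. HTSeq 0.6.1p2, TopHat and TopHat2 are named in the submitters' processing notes, with no role or setting. No source used here gives the build, the annotation or the strand setting. In the fresh ovary table the 3 column names share 1 header cell and were matched to the columns in the order listed. The protocols describe Trizol RNA, poly(A) selection and paired-end Illumina sequencing.

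RPKM is a whole number of reads over gene length and library total. Solving for both gave lengths for 21761 genes and totals of 21.8 to 72.5 M reads. All values above 0 came within 0.1 of a whole read. Whether mates were counted separately is unknown. The recovery and the test were tested on simulated data.

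The log2(RPKM + 1) values of all 18 libraries were fitted with limma 3.58.1 (R 4.3.3), with 1 coefficient per stage and trended robust variance. The 18153 genes that reached 1 RPKM in at least 3 of these 18 libraries entered the fit. P-values were adjusted over all of them at a threshold of 0.05. Fold changes on this scale are understated for low genes. P-values set a difference against the spread between libraries of the same stage, estimated over all 18 libraries. The plants behind the libraries are unknown. Other steps used Python 3.11.15, pandas 2.3.3, scipy 1.17.1 and matplotlib 3.10.9.

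Libraries with the same replicate number deviated together from their stage means, at r = 0.29, 0.31 and 0.63 between day 60 and day 2. Over all pairs of stages r was 0.07 to 0.65. Replicate 3, which gave the 0.63, was the deepest at both stages, so depth and a shared origin cannot be told apart there. The 4 named genes were chosen by rule: the largest log2 fold change and the largest RPKM difference in each direction among called genes with no overlap of libraries and at least 10 RPKM in the higher group. The genes compared and the rules were chosen with earlier results of these data known.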

Additional observations from a re-analysis of the deposited data

How the results depend on the processing

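Of 51 alternative counts of called genes, 48 stayed within 1.5 times the count given. The 3 others test against a 2-fold change and call fewer by construction, with 2246 genes, 1233 higher and 1013 lower. Leaving out 1 library of either stage gave 9844 to 10469 called genes, 5322 to 5708 higher and 4465 to 4761 lower, with the 2 libraries left assumed to vary like the other stages. The replicate block gave 11977 called genes, 6488 higher and 5489 lower, and the 4 named genes passed under this pairing too. The 6 libraries alone gave 11283 and replicates 1 and 2 alone 9507. In each of 64 alternative fits of the 4 named genes the direction held and the adjusted p was under 0.05, which their choice for large changes nearly fixed. The share of called genes that moved the same way from day 10 to day 30 was 43.4%, and 39.8% to 44.6% with 1 library left out. The difference in the share of the RPKM sum in the top 100 genes was -4.02 percentage points for day 60 minus day 2, and -4.71 to -3.09 with 1 library left out. That in genes at 1 RPKM or more was 356, and 322 to 384 with 1 library left out. The 820 steady genes became 324 with a bound of 1.2-fold and 1483 with one of 1.3-fold, and all 3 bounds, that of 1.25-fold included, were chosen after seeing the data. The count test named for count files was not run, because the values are RPKM. Gene lists were not used, because no ID matched a name. Precision is lowest for short, weakly expressed genes, where 1 RPKM is few reads.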
